A study of Mus musculus with 20 samples.

Results

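The regions described here are the promoter upstream transcript (PROMPT) regions of long non-coding RNA (lncRNA) genes. A region was included if its gene is a lincRNA, antisense, processed_transcript or bidirectional_promoter_lncRNA gene in GENCODE M21 and if its raw counts, summed over 19 libraries, reached 10 or more. The members were thus chosen by their total count and not by any difference between groups, although 12 of the 19 libraries that feed this total are Zcchc8 knockouts. Of 55471 PROMPT regions, 9553 belong to such genes and 3897 reached the minimum, with 1412 lincRNA, 1888 antisense, 435 processed_transcript and 162 bidirectional_promoter_lncRNA regions among them. Just outside the minimum lay 92 regions with a total of 9 counts, and just inside it 58 with 10 and 60 with 11. A further 2620 lncRNA regions had no count at all. The study compared total RNA of SIMS cells, a mouse salivary gland line kept in DMEM with 10% serum, in 5 groups. These were unedited wild-type cells (3 libraries in this table), Btbd7 KO cells as the negative control (4 libraries) and Zcchc8 KO clones 1, 2 and 3 (4 libraries each), all edits made with CRISPR/Cas9. Each Zcchc8 KO clone is 1 edited clone, and the labels do not say whether replicate libraries came from separate cultures, so the p-values measure the spread between libraries, which may be technical.

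PROMPTs are short, unstable transcripts made upstream of promoters, mostly in the direction opposite to the gene. The nuclear exosome targeting (NEXT) complex, made of the zinc-knuckle scaffold ZCCHC8, the RNA-binding protein RBM7 and the helicase MTR4 (gene Mtrex), hands such transcripts to the RNA exosome for decay. Many annotated lncRNAs are themselves upstream antisense products of a protein-coding promoter, so that the stretch upstream of the lncRNA start is the body of its coding neighbour, transcribed the other way. Other lncRNA genes, such as Malat1, stand alone and have a promoter with an upstream stretch of its own.

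The promoters of 4 members illustrate these arrangements. They run 250 bases before to 50 after the annotated start, on the strand of the lncRNA, and come from RefSeq (GRCm38.p6). Malat1 (chr19:5802623-5802922, minus strand) and 1700016G22Rik (chr13:5858043-5858342, minus strand) had no other annotated gene within 3 kb upstream. Both are among the 8 largest rises described below, which were chosen among members with a mean of 50 or more counts. C920006O11Rik (chr9:78175664-78175963, plus strand) faces away from Rn7sk, the gene of the abundant 7SK RNA, whose start lies 281 bases upstream. 1700122E12Rik (chr8:84846897-84847196, plus strand) faces away from Calr, the gene of the endoplasmic reticulum chaperone calreticulin. Capitals mark the letters TATAAA, the letters AATAAA and the splice-site-like letters GTAAGT on either strand and, in 1700122E12Rik, the 38 bases annotated to Calr. In Malat1 they are AATAAA, 29 bases before the start, and in C920006O11Rik TATAAA on the Rn7sk strand, 146 bases before it.
Malat1: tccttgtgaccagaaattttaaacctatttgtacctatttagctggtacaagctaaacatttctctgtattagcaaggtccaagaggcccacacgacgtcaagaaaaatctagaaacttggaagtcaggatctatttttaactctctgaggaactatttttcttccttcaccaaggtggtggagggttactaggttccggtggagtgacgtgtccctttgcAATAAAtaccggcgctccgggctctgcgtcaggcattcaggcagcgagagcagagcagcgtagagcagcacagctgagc
1700016G22Rik: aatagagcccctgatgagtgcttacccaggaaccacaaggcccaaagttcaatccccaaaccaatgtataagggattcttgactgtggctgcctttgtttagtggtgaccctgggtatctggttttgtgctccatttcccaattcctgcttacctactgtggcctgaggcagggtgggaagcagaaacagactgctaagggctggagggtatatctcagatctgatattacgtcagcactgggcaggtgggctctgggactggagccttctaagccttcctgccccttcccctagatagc
C920006O11Rik: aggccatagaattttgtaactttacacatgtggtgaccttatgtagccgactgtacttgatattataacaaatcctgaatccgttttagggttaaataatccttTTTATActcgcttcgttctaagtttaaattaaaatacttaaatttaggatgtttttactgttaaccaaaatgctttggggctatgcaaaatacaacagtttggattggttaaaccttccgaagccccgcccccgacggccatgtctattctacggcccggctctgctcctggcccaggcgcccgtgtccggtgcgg
1700122E12Rik: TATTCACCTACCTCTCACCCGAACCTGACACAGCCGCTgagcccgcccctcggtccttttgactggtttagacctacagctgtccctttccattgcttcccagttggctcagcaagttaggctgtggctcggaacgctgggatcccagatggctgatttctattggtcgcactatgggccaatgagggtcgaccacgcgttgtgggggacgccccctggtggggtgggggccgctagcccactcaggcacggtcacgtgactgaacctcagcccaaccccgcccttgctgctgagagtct

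A RefSeq promoter was found by symbol for 1496 of the 3897 members, 915 of them within 100 bases of the GENCODE start. TATAAA stood in 11.8% of these promoters, AATAAA in 16.2% and GTAAGT in 7.69%, on either strand. Over all 32851 promoters of the table, the shares were 13.6%, 19.6% and 7.65%. The 518 promoters of members with a divergent neighbour were richer in CG, with a median of 22 per promoter against 4 in the 366 promoters of members with no gene in the 5 kb upstream and 7 in all promoters. They held TATAAA in 6.95% and AATAAA in 8.88%, against 13.1% and 20.2% of those with no gene upstream. A match is a description of the letters and not a site, and the windows cover only the first bases of a counted stretch.

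Neither the length nor the strand of the counted stretch is given in the sources used here, and the counts themselves bear on it. PROMPT regions were taken whose 5 kb upstream stretch held 1 expressed gene, at 50 CPM or more. CPM are counts scaled to the TMM-adjusted gene-table size of the library. Over these, the level of the region rose weakly with that of the gene on either strand. The rank correlation was 0.21 over 1676 regions with a same-strand gene and 0.2 over 2290 with an opposite-strand gene. With a same-strand gene ending within 1 kb upstream, the median region held 37.7 CPM, or 31.1% of the level of the gene (n = 116 regions). At 2 to 3 kb it held 7.03 CPM (n = 107) and at 3 to 4 kb 1.40 CPM (n = 96). With an opposite-strand gene the median was 8.33 CPM within 1 kb (n = 558), 1.25 CPM at 2 to 3 kb (n = 34) and 0.248 CPM at 3 to 4 kb (n = 53). The counts thus held reads from both strands and dropped beyond about 3 kb. Of the members, 3053 (78.3%) had another gene in the 5 kb upstream, so their counts can include reads of that gene. The other 844 (21.7%) had none, and are called isolated below. Among protein-coding regions with 10 or more counts, 41.8% were isolated.

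Gene counts ranged from 6833258 to 17771804 per library and PROMPT counts from 1569548 to 3966608, of which the members took 23.9% to 28.8%. The Zcchc8 transcript was 64.4 ± 2.90 CPM (SD, n = 3) in wild type and 61.9 ± 4.00 (n = 4) in Btbd7 KO. Clone 1 held 60.9 ± 4.27 CPM, clone 2 held 23.5 ± 1.44 and clone 3 held 54.4 ± 4.90 (n = 4 each), or log2 fold changes of -0.09, -1.46 and -0.25, and a transcript level does not show whether the protein was lost. The Btbd7 transcript was 200 ± 7.87 CPM in wild type and 98.5 ± 3.50 in Btbd7 KO. Of 10 duct epithelial markers, 9 were above 1 CPM (Krt8, Krt18 and Epcam among them), whereas of 7 acinar markers Aqp5 and Bhlha15 were above 1 CPM and Smgc, Bpifa2 and Muc19 had no counts. Acinar markers and those of other cell types differed between groups, and their part in the results was not tested. The 7 acinar markers summed to 166 to 189 CPM in wild type and 109 to 113 in Btbd7 KO. In clones 1, 2 and 3 they summed to 137 to 166, 128 to 156 and 114 to 124 CPM. The 10 duct markers summed to 3590 to 5170 CPM in wild type and 4540 to 4660 in Btbd7 KO. In the clones they summed to 3500 to 4190, 3760 to 4200 and 3310 to 3770 CPM. The 6 myoepithelial or basal markers (Krt14 and Trp63 above 1 CPM) summed to 252 to 394 CPM in wild type, 396 to 419 in Btbd7 KO, and 167 to 216, 279 to 349 and 196 to 226 in clones 1, 2 and 3. The 6 fibroblast markers (Lum at 0) summed to 11.3 to 18.2 CPM in wild type, 22.4 to 35.1 in Btbd7 KO, and 10.2 to 14.4, 24.6 to 28.6 and 22.0 to 26.4 in the clones. The 6 blood markers (Cd68 above 1 CPM, Adgre1 and Hbb-bs at 0) summed to 4.49 to 6.12 CPM in wild type, 5.42 to 6.57 in Btbd7 KO, and 8.17 to 13.6, 9.32 to 11.1 and 4.05 to 6.66 in the clones. None of 4 endothelial markers was above 1 CPM.

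The main comparison asked which lncRNA PROMPT regions changed when Zcchc8 was knocked out. Isolated members rose broadly. Their summed level was 848 ± 79.3 CPM in wild type (SD, n = 3) and 795 ± 66.9 in Btbd7 KO (n = 4). Clone 1 reached 1759 ± 67.3 CPM, clone 2 1497 ± 131 and clone 3 1638 ± 116 (n = 4 each). The highest of the 7 control libraries held 913 CPM, below all 12 Zcchc8 KO libraries. In the edgeR quasi-likelihood fit over all PROMPT regions, 329 isolated members passed the filter on low counts, and 174 of these (52.9%) were higher in the mean of the clones and 4 (1.22%) lower, at a Benjamini-Hochberg adjusted p under 0.05. Their median log2 fold change was 1.35. Of the 329, 150 reached the filter in 3 or more control libraries, and of these 75 were higher and 3 lower, with a median of 0.83. The rest passed the filter with Zcchc8 KO libraries, so the choice favours regions that are high there. All isolated PROMPT regions, coding genes included, gave 70.1% higher with a median of 2.19, and isolated coding regions alone 80.6% with a median of 2.50.

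**Figure D1:**
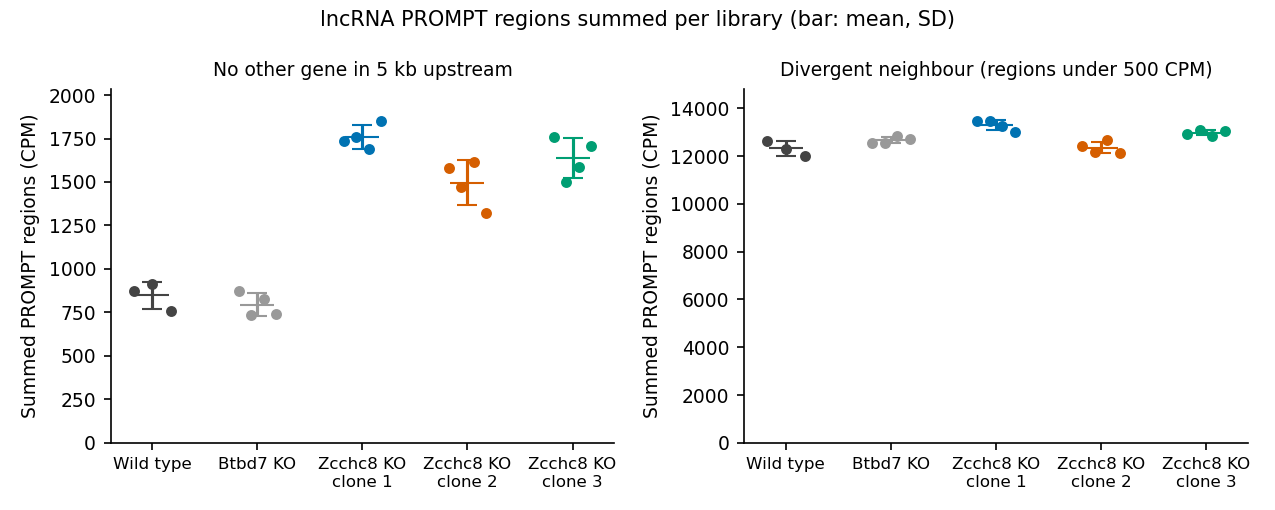
Summed level of lncRNA PROMPT regions in each library, in CPM of the gene table, for the 844 isolated regions (left) and the 1131 regions under 500 CPM with a divergent neighbour (right). Points are libraries, bars the group mean and SD. The isolated sum is higher in each Zcchc8 KO library than in each control library. The divergent sums range from 12017 to 13467 CPM, with clones 1 and 3 above wild type and clone 2 overlapping it. Btbd7 KO (12557 to 12842 CPM) overlaps wild type and reaches the lowest clone 3 library (12841 CPM).

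Across all members the shift was smaller. Of 2786 members tested (71.5% of 3897), 723 (26.0%) were higher and 134 (4.81%) lower for the clones averaged against wild type. The median log2 fold change was 0.22. Over all 17655 regions tested, 40.2% were higher and 3.17% lower, with a median of 0.46, so the members' share of higher regions was under the background and their share of lower regions above it. With a log2 fold change beyond 1 also required, 428 members were higher and 22 lower, against 32.0% and 0.329% of all regions. All 12 Zcchc8 KO libraries lay above all 7 controls in 270 members (9.69%, background 21.4%) and below them in 11 (background 0.227%). Of the tested members, 478 reached the filter in fewer than 3 control libraries, and 211 of these were called higher. Among the 2308 that reached it in controls, 512 (22.2%) were higher and 132 lower, beside 29.8% higher over all such regions. The balance of calls changed with the scaling. Scaled within the PROMPT table, which lowers the median of all regions by 0.44 on the log2 scale, 370 members were higher and 760 lower. With 1 value per line in place of libraries, 3 clones against wild type and Btbd7 KO together, limma gave 663 higher and 43 lower, with wild type counted as 1 of only 2 control lines.

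The 8 members with the largest rise among called members with a mean of 50 or more counts (99 of which were higher by over 1 on the log2 scale) had log2 fold changes of 3.73 to 4.15. In each of the 8, all 12 Zcchc8 KO libraries lay above all 7 controls. The 8 were chosen by their rise in these same libraries, so this separation is no added support for it. None of the 8 was called in Btbd7 KO against wild type. Malat1, an abundant nuclear lncRNA of nuclear speckles, lies at chr19:5795690-5802672 with no gene in the 5 kb before its start. Its PROMPT region held 0.915, 1.03 and 0.991 CPM in the wild-type libraries and 0.595, 0.727, 1.60 and 0.169 in Btbd7 KO. The clone 1 libraries held 20, 23.3, 25.6 and 19 CPM, the clone 2 libraries 9.45, 9.32, 13.6 and 14.1, and the clone 3 libraries 13.3, 15.3, 10.8 and 13.8. All 12 Zcchc8 KO libraries lay above the 7 control libraries, and the clone 1 libraries above those of clones 2 and 3, which overlapped (adjusted p for a difference among clones = 0.000186). The region rose by 3.94 ± 0.24 (log2 fold change, SE; adjusted p = 2.8e-22), while the Malat1 transcript, at 7873 CPM in wild type, rose by 0.28 ± 0.04 (adjusted p = 1.78e-07).

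1700016G22Rik, a lincRNA gene at chr13:5855508-5858092 whose promoter is printed above, gave the highest counts of the 8. Its region held 2.40, 1.98 and 3.32 CPM in wild type and 2.62, 2.05, 2.47 and 2.28 in Btbd7 KO. The values were 46.2, 45.1, 38.6 and 40.2 CPM in clone 1, 41.4, 41.9, 42.3 and 36.5 in clone 2, and 33.7, 36.5, 38.3 and 37.0 in clone 3. The 3 clones lay close together (adjusted p for a difference = 0.357), and the region rose by 3.93 ± 0.14 (adjusted p = 1.34e-32). The nearest gene upstream is Klf6, a zinc-finger transcription factor gene that starts 3390 bases away on the other strand. The Klf6 transcript, at 226 ± 12.5 CPM in wild type, changed by -0.26 ± 0.05 in the mean of the clones (adjusted p = 0.000107). It was lower in clone 1 (-0.32, adjusted p = 7.33e-05) and clone 3 (-0.42, adjusted p = 1.11e-06) but not in clone 2 (-0.04, adjusted p = 0.708). Btbd7 KO was lower for Klf6 as well (-0.21, adjusted p = 0.0145). The lncRNA 1700016G22Rik itself averaged 0.288 CPM over the Zcchc8 KO libraries and had no count in wild type.

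1810026B05Rik (chr7:73539203-73558395) and Gm38563 (chr15:61157869-61165735), like Malat1, were isolated. The 1810026B05Rik region held 1.60, 3.30 and 1.40 CPM in wild type and 0.991 to 2.35 in Btbd7 KO. It held 34.1 to 39.5 CPM in clone 1, 23.6 to 32.0 in clone 2 and 21.7 to 29.0 in clone 3, a rise of 3.83 ± 0.18 (adjusted p = 7.07e-27). Its own transcript did not pass the test (49.0 CPM in wild type and 56.3 in the knockouts, log2 fold change 0.20, adjusted p = 0.0669). The Gm38563 region went from 1.09, 0.220 and 0.874 CPM in wild type to 13.5 to 16.5 in clone 1, 6.24 to 9.25 in clone 2 and 8.71 to 9.81 in clone 3, a rise of 3.73 ± 0.28 (adjusted p = 2.9e-18). The Gm38563 transcript rose less, by 1.26 ± 0.16 (adjusted p = 4.12e-08). Both regions thus separated knockout from control libraries more than their genes did.

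**Figure D2:**
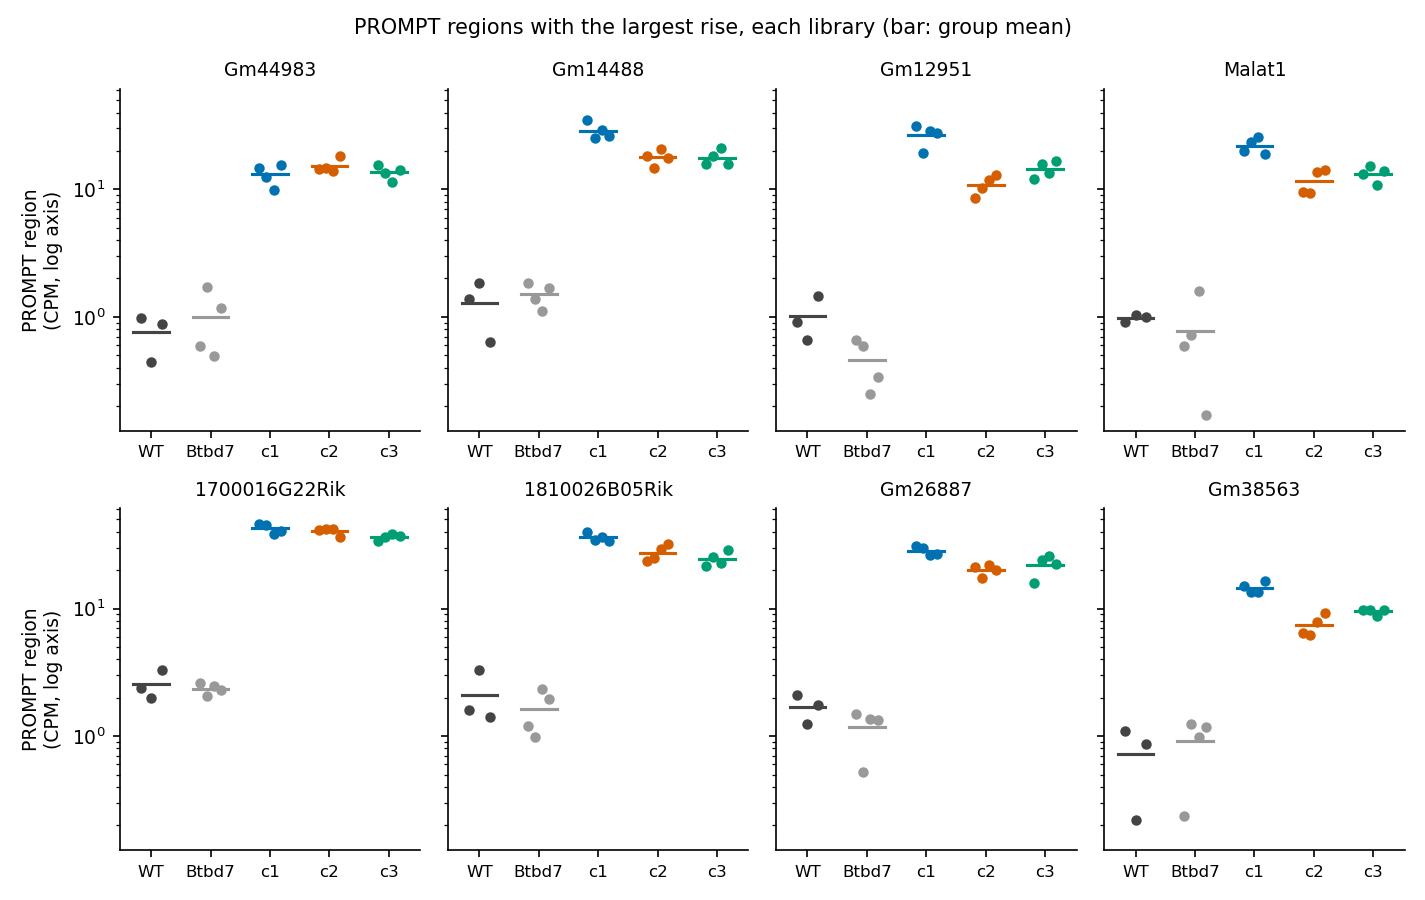
PROMPT level (CPM, log axis) of 8 lncRNA regions, per library, with group means as bars (WT, wild type, Btbd7, Btbd7 KO, c1 to c3, Zcchc8 KO clones 1 to 3). They have the largest log2 fold changes among called members with a mean of 50 or more counts. In each panel the 12 Zcchc8 KO libraries lie above the 7 control libraries, as for Malat1 at 9.32 to 25.6 against 0.169 to 1.60 CPM.

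The remaining 4 of the 8, like 1700016G22Rik, had an annotated gene in the 5 kb upstream. Gm44983 (chr7:4908886-4912357) had the largest change of the 8, 4.15 ± 0.25 (adjusted p = 1.2e-22), from 0.762 ± 0.283 CPM in wild type to 13.2 ± 2.50, 15.3 ± 1.86 and 13.7 ± 1.66 in clones 1, 2 and 3. The zinc-finger gene Zfp628 starts 2860 bases upstream on the other strand, and its transcript had a log2 fold change of 0.23 (adjusted p = 0.0537). Gm14488 (chr2:30713147-30720057) rose by 4.05 ± 0.20 (adjusted p = 4.82e-26), and its transcript by 2.52 ± 0.23 (adjusted p = 2.13e-11). The microRNA gene Mir3089, 1153 bases upstream on the other strand, rose by 2.84 ± 0.57 (adjusted p = 0.000107) from 0.386 CPM. Gm12951 (chr4:116176246-116177732) rose by 3.96 ± 0.22 (adjusted p = 8.64e-24). Here 26.7 ± 5.32 CPM in clone 1 stood above 10.9 ± 1.88 in clone 2 and 14.4 ± 2.11 in clone 3 (adjusted p among clones = 3.97e-08). The same-strand genes upstream of Gm12951, 1700042G07Rik and Gm49337, held 0.0191 and 0 CPM in wild type. The Gm12951 transcript itself rose by 3.6 ± 0.34 (adjusted p = 3.38e-11) from 0.49 CPM, about as much as its region. Gm26887 (chr8:84192774-84197667) rose by 3.74 ± 0.19 (adjusted p = 7.34e-26), and its transcript by 3.8 ± 0.73 (adjusted p = 5.8e-05) from 0.0953 CPM. The gene Gm37352, at 3202 bases on the other strand, rose by 0.99 ± 0.07 (adjusted p = 1.93e-15) from 91.1 CPM. That distance is past the about 3 kb at which the counts dropped. Where an upstream gene is read within the counted stretch, its reads and those of a PROMPT cannot be told apart.

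The members were sorted by what lies upstream, which went together with gene type. Besides the isolated ones, 1132 had a divergent neighbour (a gene on the other strand with its start within 2 kb), 1245 another opposite-strand gene, 296 a same-strand gene and 380 genes on both strands. Among tested members, 221 of 988 with a divergent neighbour were higher (22.4%) and 57 lower, with a median log2 fold change of 0.15. Another opposite-strand gene gave 192 of 951 higher (20.2%) and 45 lower, with a median of 0.19. A same-strand gene gave 56 of 210 (26.7%) and 11, and genes on both strands 80 of 308 (26.0%) and 17. Over all regions the shares higher were 39.0% with a divergent neighbour, 26.6% with another opposite-strand gene, 24.3% with a same-strand gene and 33.8% with both. Among members that reached the filter in 3 or more control libraries, 75 of 150 isolated ones were higher, and 21.6% of those with a divergent neighbour, 16.3% with another opposite-strand gene, 24.7% with a same-strand gene and 23.8% with both. The 75 higher isolated members of these had a median log2 fold change of 1.74 and the 437 higher others 0.78.

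**Figure D3:**
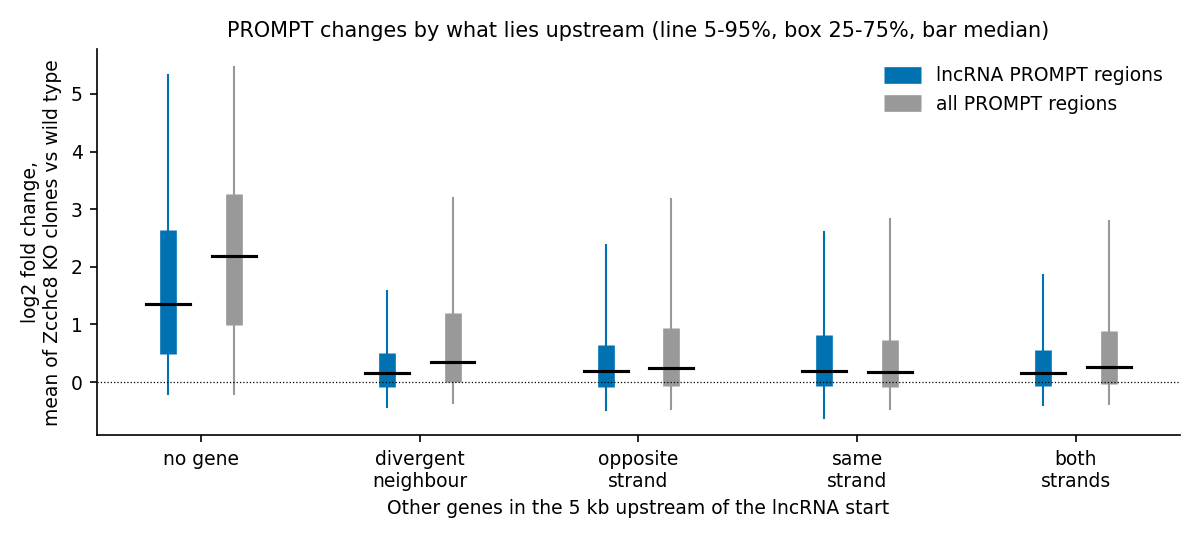
Log2 fold change of PROMPT regions, mean of the Zcchc8 KO clones against wild type, by the genes annotated in the 5 kb upstream, for lncRNA regions (blue) and all regions (grey). Lines span the 5th to 95th percentile, boxes the 25th to 75th and bars the median; isolated lncRNA regions have a median of 1.35 and the other 4 classes medians of 0.15 to 0.20.

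Members with a divergent neighbour mostly face a coding gene: 1007 of the 1132 neighbours are protein-coding and 58 are themselves of the 4 lncRNA types. The neighbour gene was tested in 934 cases. Over these pairs, region and neighbour gene had a correlation of log2 fold changes of 0.58 (Spearman 0.53), as a description over pairs that share libraries and, for overlapping stretches, reads. Where the region was lower, the neighbour gene was lower in 52 of 56 cases, not called in 4 and higher in 0. Where the region was higher, the neighbour was higher in 69 of 202 cases, not called in 116 and lower in 17. Of all 934 neighbours, 27.2% were lower and 11.7% higher, against 92.9% lower beside a lower region and 34.2% higher beside a higher region. Both shares were thus above those over all neighbours.

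**Figure D4:**
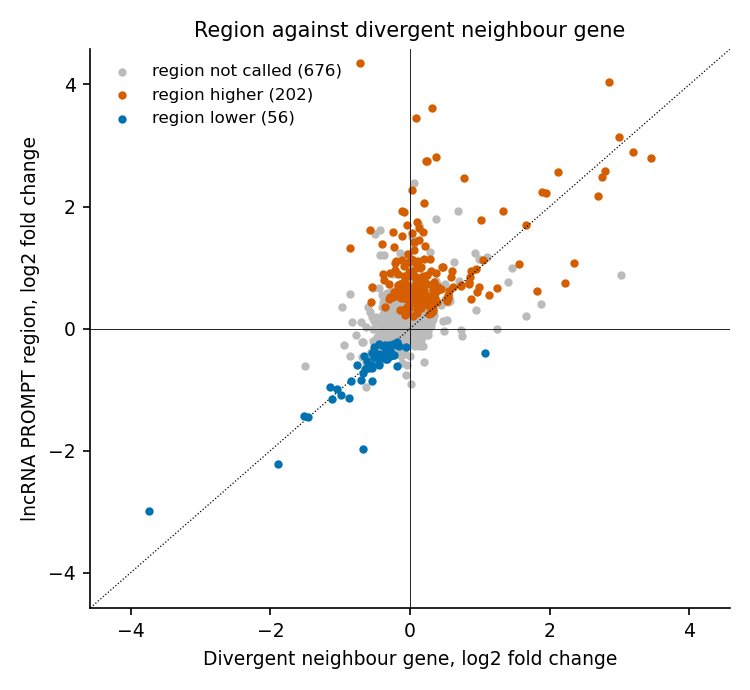
Log2 fold change (mean of the Zcchc8 KO clones against wild type) of 934 lncRNA PROMPT regions against that of their divergent neighbour gene, colored by the call for the region. The 56 lower regions lie near the dotted line of equal change with few exceptions, whereas many of the 202 higher regions lie above it near a neighbour change of 0.

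The 4 largest falls among called members with 50 or more counts on average each went with the coding gene on the other strand. Gm17501 (chr3:145650312-145677580) starts 331 bases from Ccn1, which encodes a secreted matricellular protein. Its region held 235, 223 and 226 CPM in wild type, 146, 158, 118 and 105 in clone 1, 63.1, 61.6, 75.5 and 68.1 in clone 2 and 218, 231, 212 and 248 in clone 3. Clones 1 and 2 were low and clone 3 overlapped wild type, so the mean fall of 0.85 ± 0.07 on the log2 scale (adjusted p = 2.29e-15) hid a difference among clones (adjusted p = 1.15e-23). The Ccn1 transcript read 233 ± 8.82 CPM in wild type, 135 ± 25.7, 68.4 ± 6.12 and 232 ± 15.8 in clones 1, 2 and 3. Region and gene thus had nearly the same level in every group.

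Gm30270 (chr6:21852418-21853483) overlaps the start of Tspan12, a tetraspanin gene. Its region was 0.790, 0, 1.02 and 0.905 CPM in clone 1, against 6, 5.21 and 7.93 in wild type. Clone 2 (4.87 to 9.42 CPM) and clone 3 (4.15 to 7.90) overlapped wild type. Tspan12 had the same pattern, with log2 fold changes of -3.14 in clone 1 (adjusted p = 6.18e-19), 0.05 in clone 2 and -0.05 in clone 3. C230034O21Rik (chr3:38874570-38888259), across from the cadherin gene Fat4, was 6.43 ± 0.991 CPM in wild type, 3.22 ± 0.762 in clone 1, 2.00 ± 0.375 in clone 2 and 5.75 ± 1.62 in clone 3. Fat4 read 32.0 ± 2.80 in wild type and 14.9 ± 1.71, 9.67 ± 1.27 and 21.6 ± 1.97 in the clones. Gm47118 (chr13:42302298-42304991) lies inside Edn1, the gene of the vasoconstrictor peptide endothelin 1. It was the only one of the 4 with all 12 knockout libraries (2.78 to 6.92 CPM) below all 7 controls (7.49 to 11.7), falling by 0.91 ± 0.17 (adjusted p = 8.5e-06), beside a log2 fold change of -0.88 ± 0.17 for Edn1.

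**Figure D5:**
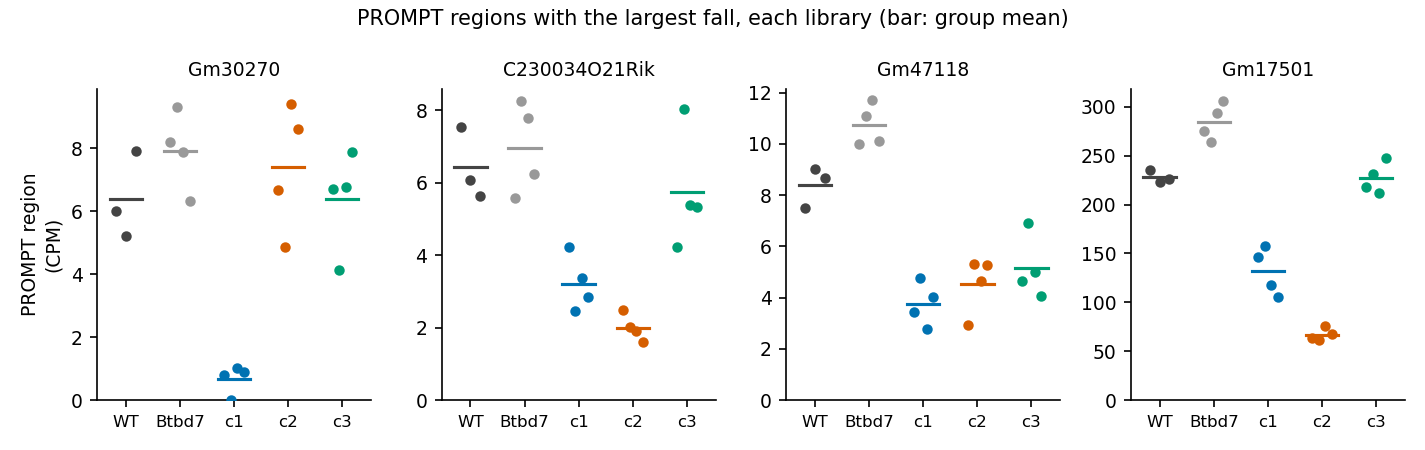
PROMPT level (CPM, linear axis from 0) of 4 lncRNA regions, per library, with group means as bars. They have the lowest log2 fold changes among called members with a mean of 50 or more counts. Gm30270 is low in clone 1 alone, Gm17501 and C230034O21Rik in clones 1 and 2, and Gm47118 in all 3 clones.

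The 5 members above 500 CPM on average held 44.6% to 51.9% of the summed member level of a library, and the 2 largest, Gm42418 and C920006O11Rik, took 43.9% of all member counts. C920006O11Rik read 11680 ± 634 CPM in wild type (SD, n = 3) and 12410 ± 660, 11977 ± 645 and 12157 ± 995 in clones 1, 2 and 3, and Rn7sk, in the gene counts, read 11679 ± 634, 12406 ± 662, 11975 ± 646 and 12155 ± 995. The region did not pass the test (log2 fold change 0.06, adjusted p = 0.316), and it was lower under scaling within the PROMPT table (-0.34, adjusted p = 2.03e-08). The C920006O11Rik transcript itself rose by 2.7 ± 0.50 (adjusted p = 4.05e-05) from 0.265 CPM. Gm42418, whose upstream stretch holds an annotated rRNA and the lincRNA Gm26917, ranged from 8846 to 16083 CPM among the wild-type libraries alone, with a log2 fold change of 0.10 (adjusted p = 0.434). This value was 0.30 without wild-type replicate 2 (adjusted p = 0.00843) and -0.11 without wild-type replicate 4 (adjusted p = 0.333), and -0.31 under scaling within the PROMPT table (adjusted p = 0.00497).

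The most abundant antisense region was Frmd8os, which faces Neat1, the lncRNA scaffold of paraspeckles. Its region read 552 ± 65.5 CPM in wild type, 718 ± 47.7 in Btbd7 KO, and 674 ± 41.6, 1021 ± 84.0 and 760 ± 116 in clones 1, 2 and 3. It rose by 0.54 ± 0.07 (adjusted p = 3e-09), a call lost under scaling within the PROMPT table (0.14, adjusted p = 0.126). It was higher in Btbd7 KO as well (0.38, adjusted p = 0.00327). Neat1 itself rose by 1.13 ± 0.06 (adjusted p = 1.35e-17), from 646 CPM. Gm11508, across from the splicing factor gene Srsf1, read 341 ± 27.9 CPM in wild type and did not pass the test (-0.10, adjusted p = 0.213). Under scaling within the PROMPT table it was lower by that test (-0.50, adjusted p = 1.04e-09).

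Among processed_transcript regions the most abundant were 1700122E12Rik and Gm13986, and among bidirectional_promoter_lncRNA regions 1700081N11Rik and Gm9828. The 1700122E12Rik region held 552, 540 and 512 CPM in wild type and 374 to 416, 418 to 488 and 452 to 516 in clones 1, 2 and 3, falling by 0.28 ± 0.06 (adjusted p = 5.35e-05). Calr fell by 0.29 ± 0.04 (adjusted p = 2.35e-07). Gm13986, across from the thrombospondin gene Thbs1, had all 12 knockout libraries below all 7 controls and fell by 0.39 ± 0.07, while Thbs1 fell by 0.55 ± 0.05. 1700081N11Rik fell by 0.26 ± 0.07 (adjusted p = 0.00311) and its neighbour Cfl2, a cofilin gene, by 0.25 (adjusted p = 0.000536). Gm9828 fell by 0.40 ± 0.08 and its neighbour Btf3, a transcription factor subunit gene, by 0.35. In 3 of these cases the lncRNA on the other side of the promoter rose in the gene table: 1700122E12Rik by 1.94 ± 0.28 (adjusted p = 3.79e-07), Gm13986 by 1.66 ± 0.55 (adjusted p = 0.0152) and Gm9828 by 0.75 ± 0.18 (adjusted p = 0.00123).

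By gene type, lincRNA regions had the largest share higher, 313 of 753 tested (41.6%, median log2 fold change 0.59), with 30 lower, which is near the 40.2% and 0.46 over all regions. Processed_transcript regions had 102 of 355 (28.7%, median 0.17) and 12 lower, bidirectional_promoter_lncRNA regions 31 of 153 (20.3%, median 0.16) and 8 lower, and antisense regions 277 of 1525 (18.2%, median 0.15) and 84 lower. Position and type went together: 658 of the 844 isolated members were lincRNA, 119 antisense and 66 processed_transcript, while 145 of 162 bidirectional_promoter_lncRNA members had a divergent neighbour. Within the isolated class, the tested lincRNA regions were higher in 124 of 236 (52.5%), antisense in 28 of 59 (47.5%) and processed_transcript in 22 of 34 (64.7%). With a divergent neighbour, the shares were 31.1%, 19.3%, 21.9% and, for bidirectional_promoter_lncRNA, 20%. By name, 25.9% of 648 tested RIKEN regions, 24.9% of 1775 predicted (Gm) and 28.1% of 128 opposite-strand (os) regions were higher, all near the 26.0% of all members.

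Each clone alone gave a like picture, against the same 3 wild-type libraries. In clone 1, 735 members (26.4%) were higher and 154 lower, with backgrounds of 39.8% and 3.61%. Clone 2 had 650 (23.3%) and 136, with backgrounds of 36.1% and 3.03%, and clone 3 had 631 (22.6%) and 95, with backgrounds of 36.9% and 2.36%. Isolated members were higher in 181, 157 and 164 of 329 in clones 1, 2 and 3, and lower in 2 in each. Of all isolated regions, 69.6%, 64.3% and 66.0% were higher in clones 1, 2 and 3. In each clone the share of higher isolated members was thus under this background. The clones differed from each other in 394 members (14.1%, background 11.0%). Among them were 44 of 329 isolated members (13.4%), beside 9.24% of all isolated regions. Another 155 of 988 had a divergent neighbour (15.7%), beside 12.5% of all regions with one.

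The Btbd7 KO, an edited line without the Zcchc8 edit, showed few changes. Against wild type, 53 members were higher (1.90%, background 1.36%) and 73 lower (2.62%, background 1.69%), and the median was -0.04. Of 329 isolated members, 3 were higher and 4 lower. The higher count came to 31 to 54 and the lower count to 38 to 76 when single libraries were left out, with the lowest values without Btbd7 KO replicate 1 and without wild-type replicate 4. They were also below the full counts by over 1.5 times without Btbd7 KO replicates 2 (35 higher), 3 (34 higher, 48 lower) and 4 (47 lower), and 47 were lower without replicate 1. Set against Btbd7 KO libraries instead, the averaged clones were higher in 952 members (34.2%, background 46.0%) and lower in 219 (7.86%, background 5.62%). Of isolated members, 204 of 329 were then higher (62.0%) and 2 lower (0.608%), beside 73.8% and 0.840% of all isolated regions.

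Of 20 well-known lncRNA genes on a fixed list, 11 were members. Besides Malat1, the regions of Neat1, Mir17hg and Dleu2 rose. Neat1 (chr19:5824708-5845478) read 0.400, 0.220 and 0.932 CPM in wild type, 0 to 0.494 in Btbd7 KO and 1.90 to 4.53 over the 12 Zcchc8 KO libraries, which all lay above the controls. It rose by 2.50 ± 0.43 (adjusted p = 1.32e-06), and its stretch holds Frmd8os, whose transcript rose by 2.09 ± 0.34 (adjusted p = 5.4e-06). The isolated region of Mir17hg, host of the miR-17-92 cluster, had 4, 0 and 3 raw counts in wild type and 2 to 19 in the Zcchc8 KO libraries (log2 fold change 2.53 ± 0.77, adjusted p = 0.00542). Dleu2, host of miR-15a and miR-16-1 and divergent from Gm37820, whose transcript rose by 2.75 (adjusted p = 3.72e-08), had 3, 3 and 0 counts in wild type and 2 to 21 in the knockouts (2.49 ± 0.83, adjusted p = 0.0116), a call lost without wild-type replicate 4 (1.90, adjusted p = 0.0816). At such counts the size of a fold change depends on the model.

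The other listed members did not pass the test for the mean of the clones. Tug1 (antisense, across from Morc2a) read 12.4, 14.2 and 17.4 CPM in wild type and 11.5 to 21.5 in the Zcchc8 KO libraries, with a log2 fold change of 0.08 (adjusted p = 0.679). It was -0.32 (adjusted p = 0.0379) under scaling within the PROMPT table and -0.03 without wild-type replicate 2. Gas5 (0.45, adjusted p = 0.315), Snhg1 (0.67, adjusted p = 0.208) and Snhg3 (-0.50, adjusted p = 0.213), hosts of small nucleolar RNAs, stayed within 0.883 to 2.56 CPM in all group means. Snhg1 passed without wild-type replicate 3 (1.41, adjusted p = 0.0223), and Snhg3 under scaling within the PROMPT table (-0.91, adjusted p = 0.0127). Xist and Trp53cor1 were too low to test, with 1.37 and 0.737 counts per library on average.

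Kcnq1ot1, the imprinted antisense RNA of the Kcnq1 locus (chr7:143203458-143296549), differed among clones (adjusted p = 4.53e-05). Its region read 0.457, 0.587 and 0 CPM in wild type, 3.34, 3.23, 1.61 and 1.74 in clone 2 and 0, 0.252, 0.128 and 0 in clone 3. Clone 2 was above wild type (2.81, adjusted p = 0.00157), while clones 1 and 3 did not pass (0.47 and -2.10, adjusted p = 0.701 and 0.108). Kcnq1, the potassium channel gene that covers this stretch on the other strand, moved in the same way: 4.54 ± 0.780 CPM in wild type, 15.1 ± 1.48 in clone 2 and 0.794 ± 0.339 in clone 3. The mean of the clones (0.39, adjusted p = 0.749) turned to -0.006 under scaling within the PROMPT table and to -0.21 without wild-type replicate 4.

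The lncRNA genes themselves, a readout that did not choose the members, rose more often than their upstream regions. In the gene table, 1249 of the 3897 genes passed the filter, of which 730 (58.4%) were higher and 15 (1.2%) lower in the mean of the clones, with a median log2 fold change of 1.28. Over all 15547 genes tested, 17.9% were higher and 17.9% lower. Of the 1249, 564 reached the filter in fewer than 3 control libraries, and 376 of these were called higher. Among the 685 that reached it in controls, 354 (51.7%) were higher and 14 lower, with a median of 0.66, beside 15.1% higher and 20.1% lower over all such genes. The share was 79.2% in bidirectional_promoter_lncRNA genes (84 of 106, median 1.99), 61.8% in antisense (293 of 474), 53.8% in processed_transcript (127 of 236) and 52.2% in lincRNA genes (226 of 433). Genes with a divergent neighbour were higher in 422 of 597 cases (70.7%, median 1.73), isolated genes in 93 of 222 (41.9%, median 0.81) and genes with a same-strand gene upstream in 25 of 112 (22.3%, median 0.27). With the filter reached in controls, the shares were 64.8% of 298, 37.2% of 137 and 17.9% of 84.

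Isolated members thus had the highest share of higher regions of the 5 position classes, and those with a divergent neighbour the highest share of higher genes. The same-strand class was lowest for genes but not for regions. In 1140 members tested in both tables, the median log2 fold change was 0.25 for the region and 1.31 for the gene, with a correlation of 0.02 over members. In the 165 isolated ones it was 1.89 for the region and 0.79 for the gene, and in the 582 with a divergent neighbour 0.16 and 1.75. Of the isolated, 59 had region and gene higher, 48 the region but not the gene and 9 the gene but not the region, including 3 where region and gene were called in opposite directions. With a divergent neighbour the counts were 110, 36 and 305, including 24 called in opposite directions (21 with the gene higher and the region lower). The median log2 ratio of region to gene counts per library, over 2068 members with 10 or more counts in each table, was 2.76 ± 0.06 in wild type (SD, n = 3), 2.67 ± 0.13 in Btbd7 KO, and 1.85 ± 0.02, 1.96 ± 0.08 and 1.90 ± 0.07 in clones 1, 2 and 3 (n = 4 each). With 50 or more counts in each table (1304 members), it was 2.56 ± 0.05 in wild type, 2.59 ± 0.04 in Btbd7 KO and 1.49 ± 0.07, 1.55 ± 0.02 and 1.57 ± 0.05 in the clones. Over all members the ratio was thus lower in each Zcchc8 KO library than in each control library at either minimum. For isolated members the picture depended on the minimum. In 438 with 10 or more counts the median was 0 in all wild-type and Btbd7 KO libraries. It was 0.01 ± 0.03, 0.05 ± 0.09 and 0.15 ± 0.21 in clones 1, 2 and 3. A member with equal counts in both, as with no count in either, scores exactly 0 here. These medians thus do not show that region and gene had equal levels. In 205 with 50 or more the ratio was -0.45 ± 0.16 in wild type and -0.62 ± 0.15 in Btbd7 KO. In the clones it was -0.21 ± 0.07, -0.29 ± 0.16 and -0.25 ± 0.11, where clones 2 and 3 overlapped wild type.

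Among genes of the decay and termination machinery, most did not pass the test in the same gene table. In NEXT, Zcchc8 fell by 0.60 ± 0.07 on the log2 scale in the mean of the clones (adjusted p = 1.9e-09) and Mtrex fell by 0.29 ± 0.05 (adjusted p = 4.63e-06), and Rbm7 did not pass (-0.12, adjusted p = 0.144). Of 5 genes of the poly(A) tail exosome targeting (PAXT) connection, which serves longer polyadenylated nuclear RNAs, 1 was lower (Rbm26, -0.18) and none higher. Among 12 exosome genes tested of 13, 5 were lower (Exosc1, Exosc4, Exosc8, Exosc9 and the nuclease gene Dis3, -0.28 to -0.42) and none higher. Of 6 cap-binding and ARS2 genes, Srrt, which encodes ARS2, rose by 0.50 ± 0.05 (adjusted p = 7.54e-11), and Ncbp1 and Phax were lower. Zc3h4, of the Restrictor complex, rose by 0.22 ± 0.05 (adjusted p = 0.0011), alone among 4 termination genes. Of 14 Integrator genes, 2 were higher and 3 lower. Beside all these lists, 17.9% of all genes tested passed in each direction, and of protein-coding genes 13.4% were higher and 23.1% lower.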

How the data were processed

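The authors deposited raw counts per feature and library, as whole numbers, in a gene table (20 libraries) and a PROMPT table (19 libraries, without wild-type replicate 1). STAR 2.7.3a and FastQC are named in the submitters' processing notes. Extraction used TRIzol and spin columns, and the library kit was TruSeq Stranded Total RNA, per the labels' protocols. The counter, its strand setting and the length of a PROMPT region are not given in the sources used here. Libraries were grouped by their titles.

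Gene types and positions came from GENCODE M21 (GRCm38): 55230 of 55471 rows matched by identifier without version, and 3874 members with version. PROMPT counts were tested with edgeR 4.0.16 (glmQLFit, glmQLFTest, R 4.3.3) in 1 fit over all regions that passed filterByExpr by group, with library sizes and TMM factors of the gene table. Calls needed a Benjamini-Hochberg adjusted p under 0.05 over all 17655 regions tested. Set against wild type were the average of the 3 Zcchc8 KO clones, each clone and Btbd7 KO. Further contrasts were the mean of the clones against Btbd7 KO and a test among the clones with 2 degrees of freedom. The gene table was fitted likewise on the same 19 libraries (15547 genes). Levels are CPM, the counts scaled to the TMM-adjusted gene-table size of the library. Ratios used log2 with a pseudocount of 0.5. Errors are SD between libraries or SE of the fit. The fit was tested on simulated data. Other settings were DESeq2 1.42.0, limma 3.58.1 on lines, other filters and scalings, a replicate block and leaving out libraries.

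Members and lists were chosen with earlier results of these data known. Named members were the 8 largest and 4 lowest called log2 fold changes among members with a mean of 50 or more counts, the 2 most abundant per gene type, and a list of 20 well-known lncRNA genes. Genes that overlap on opposite strands share reads here, since the PROMPT counts followed both strands.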

Additional observations from a re-analysis of the deposited data

Results flagged for a closer look

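Of 120 groups of 4 libraries of the named members, 13 had 1 library far from the others by Dixon's criterion, and chance flags about 1 in 20 groups. In levels, these were the lowest clone 2 library of 1700016G22Rik (36.5 CPM), the lowest Btbd7 KO library of Gm26887 (0.528 CPM) and the lowest clone 3 library of Gm38563 (8.71 CPM). The highest clone 2 library of C920006O11Rik (12936 CPM) and the highest Btbd7 KO library of 1700081N11Rik (103 CPM) stood apart as well. At low levels, so did the lowest clone 1 and clone 2 libraries of Gas5 (0.790 and 1.11 CPM), the lowest clone 2 library of Snhg1 (1.04 CPM) and the lowest clone 1 library of Kcnq1ot1 (0 CPM). The others were the highest Btbd7 KO libraries of Mir17hg (0.132 CPM) and Trp53cor1 (0.247 CPM) and the highest clone 1 and clone 2 libraries of Xist (0.273 and 0.143 CPM). In these last groups every other library had no count. The criterion always flags such a group, so the rate of 1 in 20 does not hold for them.

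The 3 Zcchc8 KO clones differed from each other in 15 of the named members, by edgeR's test with 2 degrees of freedom. Among those with the largest rise, adjusted p was 0.000199 for Gm14488, 3.97e-08 for Gm12951, 0.000186 for Malat1, 0.0118 for 1810026B05Rik, 0.0311 for Gm26887 and 0.00188 for Gm38563. In each of these 6 clone 1 had the highest mean. Among the falls it was 1.51e-11 for Gm30270, 2.62e-05 for C230034O21Rik and 1.15e-23 for Gm17501. Gm30270 was low in clone 1 alone, and C230034O21Rik and Gm17501 in clones 1 and 2. Among the abundant regions it was 0.00395 for Gm42418, 3.36e-08 for Frmd8os, 0.00965 for 1700122E12Rik, 0.00519 for 1700081N11Rik and 0.0203 for Gm9828. For Kcnq1ot1 it was 4.53e-05.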

How the results depend on the processing

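Scaling within the PROMPT table gave 370 members higher and 760 lower for the mean of the clones, 363 and 723 in clone 1, 365 and 559 in clone 2, 333 and 524 in clone 3, and 460 and 841 against Btbd7 KO. By its construction this scaling centres the regions on 0. It turned the sign of Gm42418 (-0.31), C920006O11Rik (-0.34), Kcnq1ot1 (-0.006) and Tug1 (-0.32). Lines as replicates (wild type and Btbd7 KO against 3 clones) left 43 lower, with fewer samples. With a log2 fold change beyond 1 required, 428 were higher and 22 lower. Members isolated over 5 kb gave 174 higher and 4 lower, and over 3 kb, chosen after seeing the data, 213 and 6. Isolated members numbered 978 at 3 kb and 1145 at 1 kb. With no filter on low counts, 24 lncRNA genes were lower. Of the genes that reach the filter in controls, an alternative chosen after seeing the data, 354 were higher. The shift of the ratio of region to gene counts, -0.86 between the mean of the clones and wild type, was -1.02 with at least 50 counts in each table. DESeq2, omitting TMM, a mean of 10 counts, no filter and 50 or more total counts moved no count of higher or lower members by over 1.5 times. DESeq2 was not run for the test among clones.

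The replicate block gave 679 members higher and 123 lower, and changed no other count by over 1.5 times. Same-numbered libraries deviated together by correlations of only -0.08 to 0.10 over 36 pairs, so the numbers were not taken as pairs. Leaving out single libraries gave 638 to 728 higher and 110 to 138 lower, and 658 to 736 and 11 to 17 for lncRNA genes. For Btbd7 KO it gave 31 to 54 higher and 38 to 76 lower. Over the libraries left out, the log2 fold change of Gm42418 ran from -0.11 (without wild-type replicate 4) to 0.30 (without wild-type replicate 2), that of Kcnq1ot1 from -0.21 (without wild-type replicate 4) to 0.93 (without wild-type replicate 3) and that of Tug1 from -0.031 (without wild-type replicate 2) to 0.22 (without wild-type replicate 4). The cause was not tested. Of the single-member values under all settings, 684 kept direction and side of the threshold, 7 changed sign, 3 of them with a call gained, 4 others gained a call and 2 lost one. Regions near the count minimum are limited by depth.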
